A study of Mus musculus with 2 samples.

Results

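Mir22, Mir210, Mir34a, Mir34b and Mir34c are 5 mouse miRNA genes best known for their response to cardiac load, low oxygen and DNA damage. They were taken by gene symbol from the 2202 miRNA genes of the deposited tables, and all 5 were found. MicroRNA sequencing had been done on hearts of male B6CASTF1/J mice (a first-generation cross of C57BL/6J and CAST/EiJ) at 4 days after birth. There were 2 libraries of size-selected total RNA, replicate 1 and replicate 2. They form 1 group with no treatment or mutant, so the values describe the neonatal heart and the spread between the 2 libraries. The labels number the animals separately but give both the same donor identifier, and p-values measure only the difference between these libraries, which may be technical. Whole hearts hold several cell types, and in such samples fewer cells of a type and less RNA per cell cannot be told apart.

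A miRNA is cut from a hairpin precursor into a 5p and a 3p arm, and an arm loaded into an Argonaute protein represses messenger RNAs that pair with its seed, the bases after the first one. miR-22 is abundant in heart and skeletal muscle, and mice lacking it have an altered hypertrophic response to cardiac stress. miR-210 is the classical target of the hypoxia-inducible factor HIF-1 and lowers mitochondrial respiration through the iron-sulphur scaffold Iscu. miR-34a is transcribed by p53 and represses cell cycle and survival genes. Mir34b and Mir34c are made from a common p53-responsive transcript and are best known from testis and multiciliated epithelia.

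The mature sequences are shown because the seed sorts the 5 genes into separate targeting groups. They are from RefSeq (build GRCm38.p6), written 5′ to 3′ with the seed, bases 2 to 8, in capitals. The arms on which miR-22 and miR-210 are known to act have seeds found in no other of the 1679 mature entries of the table.
mmu-miR-22-3p: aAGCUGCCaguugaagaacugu
mmu-miR-210-3p: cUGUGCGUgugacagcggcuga
The 5p arms of Mir34a and Mir34b carry the same seed, which 2 Mir449 arms of the table share. The 5p arms of Mir34c and Mir449b, known members of the same family, were not used here. Mir449 genes lie in an intron of the ciliated cell gene Cdc20b.
mmu-miR-34a-5p: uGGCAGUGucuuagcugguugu
mmu-miR-34b-5p: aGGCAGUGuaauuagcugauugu
mmu-miR-449a-5p: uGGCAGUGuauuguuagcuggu
mmu-miR-449c-5p: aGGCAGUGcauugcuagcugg
The 3p arms of the clustered pair share a seed of their own, which the 3p arm of Mir34a does not have.
mmu-miR-34b-3p: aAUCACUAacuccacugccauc
mmu-miR-34c-3p: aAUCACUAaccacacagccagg
mmu-miR-34a-3p: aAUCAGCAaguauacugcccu

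Compared position by position without gaps, the 3p arms of Mir34b and Mir34c were identical at 17 of 22 bases, and the 5p arms of Mir34a and Mir34b at 11 of 22. The 5p arms of Mir34a and Mir449a were identical at 15 of 22 bases by this count. The 5p arm of Mir34b has 23 bases and that of Mir34a 22, and no alignment with gaps was made. These counts therefore do not rank the likeness of the 5p arms. miR-22-3p and miR-210-3p were identical at 5 of 22 bases. The tables count reads of the 5p and the 3p arm together, so which arm the reads came from is not known.

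The 5 genes lie at 4 loci of the mm10 assembly (GENCODE M21 annotation). Mir22 (ENSMUSG00000065529.1; chromosome 11, 75463716 to 75463810, plus strand) overlaps an exon of its noncoding host Mir22hg and a noncoding exon stretch of the protein-coding gene Tlcd2, both on the same strand. Mir210 (ENSMUSG00000065551.1; chromosome 7, 141221384 to 141221493, minus strand) is intergenic, with Rassf7 as the nearest gene, 2725 bases away on the opposite strand. Mir34a (ENSMUSG00000065493.1; chromosome 4, 150068454 to 150068555, plus strand) partly overlaps an exon of the uncurated gene model Gm37795. Mir34c (ENSMUSG00000065587.1; chromosome 9, 51103034 to 51103110) and Mir34b (ENSMUSG00000065492.1; chromosome 9, 51103562 to 51103645) lie 451 bases apart on the minus strand, in an intron of Btg4, which is on the opposite strand.

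Sense counts, those on the gene's own strand, totalled 4196577 in replicate 1 and 3801738 in replicate 2. A single read was worth 0.238 and 0.263 CPM (counts scaled so that each library's sense counts sum to 1000000). Multi-mapped reads, 38.1% and 42.3% of all reads of replicates 1 and 2, are in no gene's count. None of the 5 hairpins shares a 20-base window with another annotated miRNA hairpin, whereas 1133 of the 2202 hairpins do; copies outside miRNA genes were not examined. For each of the 5 genes the count without regard to strand equalled the sense count, and 0 reads lay on the opposite strand in both libraries. The heart markers Mir208a, Mir208b and Mir499, encoded in myosin genes, were present at 1259 CPM or more in both libraries. Other heart markers had low counts. Mir1a-2 was at 33.1 CPM in replicate 1 and 54.4 CPM in replicate 2. Mir1a-1, Mir133a-1 and Mir133a-2 were at 7.63 CPM or less in both libraries.

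Mir22 was by far the most abundant of the 5 genes. It had 82688 counts, 19704 CPM, in replicate 1 and 15321 counts, 4030 CPM, in replicate 2. Replicate 1 was thus the high library for Mir22, which ranked 12 among all genes there and 39 in replicate 2. Of the sense counts of replicate 1 it took 1.97%, with a 95% Wilson interval of 1.957 to 1.984, against 0.403% of those of replicate 2, with an interval of 0.397 to 0.409. Its mean was 11867 ± 11083 CPM (SD, n = 2). Mir22 made up 89.1% of the summed counts of the 5 genes in replicate 1 and 79.2% in replicate 2. All intervals and limits given here cover counting error only, since reads of an amplified library are not independent molecules.

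Mir34a, the p53 target, came next. It had 5562 counts, 1325 CPM, in replicate 1 and 2353 counts, 619 CPM, in replicate 2, a mean of 972 ± 500 CPM (SD, n = 2). Its rank was 70 in replicate 1 and 83 in replicate 2, so its place in the profile shifted little although its level was again higher in replicate 1.

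Mir210, the hypoxia miRNA, had 4315 counts, 1028 CPM, in replicate 1 and 912 counts, 240 CPM, in replicate 2. Its mean was 634 ± 557 CPM (SD, n = 2), and its rank was 77 in replicate 1 and 128 in replicate 2. Mir210 stood close to Mir34a in replicate 1 and well below it in replicate 2.

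The clustered pair was lower. Mir34c had 272 counts, 64.8 CPM, in replicate 1 and 756 counts, 199 CPM, in replicate 2, a mean of 132 ± 94.8 CPM (SD, n = 2). It ranked 196 in replicate 1 and 142 in replicate 2, and was the only one of the 5 genes whose level was lower in replicate 1. Mir34b had 15 counts, 3.57 CPM, in replicate 1 and 9 counts, 2.37 CPM, in replicate 2, a mean of 2.97 ± 0.85 CPM (SD, n = 2). These levels of Mir34b lie above the 0.715 and 0.789 CPM that a count of 0 allows in replicates 1 and 2 (3 counts), and counting error alone spans several-fold.

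**Figure D1:**
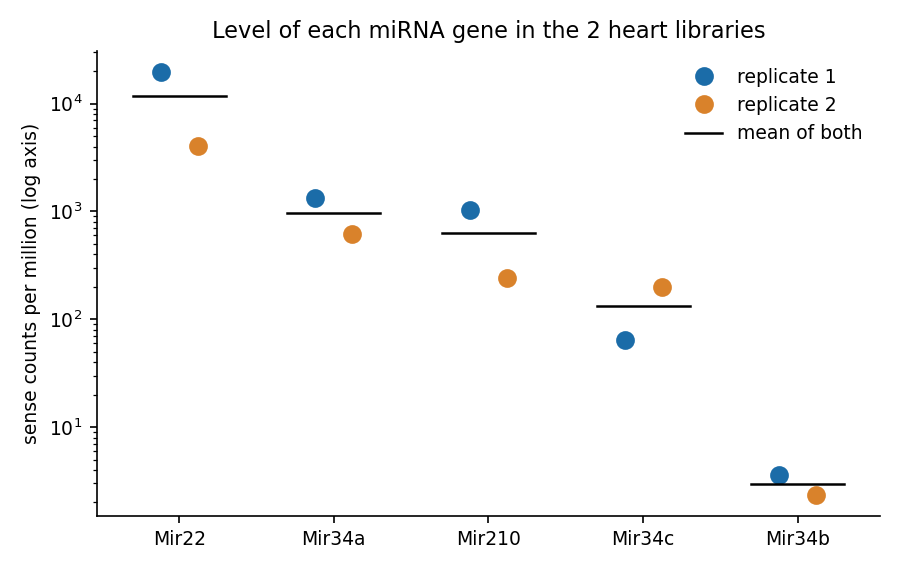
Sense CPM (log axis) of each gene, with replicate 1 as the left and replicate 2 as the right point and a bar at the mean of both. Mir22 stands highest at 19704 and 4030 CPM and Mir34b lowest at 3.57 and 2.37 CPM, and Mir34c alone is lower in replicate 1.

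The order of mean levels was Mir22, Mir34a, Mir210, Mir34c and Mir34b, and it held within each library. These are ratios of read counts of different miRNA genes. Each read stands for a whole short RNA and not for a part of a longer one. Counts were therefore not divided by length in the main ratios. Unequal capture of different miRNAs was not tested. Mir22 exceeded Mir34a by 14.9-fold in replicate 1 (exact 95% interval 14.5 to 15.3) and 6.51-fold in replicate 2 (6.23 to 6.80). Mir34a exceeded Mir210 by 1.29-fold in replicate 1 (1.24 to 1.34) and 2.58-fold in replicate 2 (2.39 to 2.79). The means of these neighbours overlap within their SDs, but these SDs ignore that both genes were counted in the same libraries. Their order rests on the within-library ratios. As log2 ratios these averaged 3.30 ± 0.84 for Mir22 over Mir34a and 0.87 ± 0.71 for Mir34a over Mir210 (SD, n = 2).

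Mir210 and Mir34c were 15.9-fold apart in replicate 1 (14.0 to 18.0) but only 1.21-fold apart in replicate 2 (1.09 to 1.33). Their means, 634 ± 557 and 132 ± 94.8 CPM, also overlap within their SDs. The within-library log2 ratio of Mir210 over Mir34c averaged 2.13 ± 2.63 (SD, n = 2), a spread larger than its mean. Divided by the length of the hairpin, 110 and 77 bases, the ratio in replicate 2 was 0.844 (0.766 to 0.931), and the order of this pair was then no longer the same in both libraries. The other neighbouring pairs kept their order per base of hairpin. Mir22 and Mir210 kept the steadiest ratio of the 6 pairs compared, at 19.2-fold in replicate 1 (18.6 to 19.8) and 16.8-fold in replicate 2 (15.7 to 18.0), a log2 ratio of 4.17 ± 0.13 (SD, n = 2).

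Within the chromosome 9 cluster, Mir34c far exceeded Mir34b. The ratio of their counts was 18.1 in replicate 1 (exact 95% interval 10.8 to 32.8) and 84.0 in replicate 2 (44.0 to 184). Both genes come from the same strand of one locus, and the intervals of the ratio in the 2 libraries do not overlap. Mir34b did not follow Mir34c: it was at 3.57 CPM in replicate 1 and 2.37 CPM in replicate 2.

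The genes of the miR-34 and miR-449 seed group, taken by their known family, differed in make-up between the libraries. Mir34a, Mir34b, Mir34c, Mir449a, Mir449b and Mir449c summed to 6016 counts (1434 CPM) in replicate 1 and 3202 counts (842 CPM) in replicate 2. Mir34a provided 92.5% of them in replicate 1 (exact binomial 95% interval 91.8 to 93.1) and 73.5% in replicate 2 (71.9 to 75.0). Mir34c provided 4.52% in replicate 1 (4.01 to 5.08) and 23.6% in replicate 2 (22.1 to 25.1), so the share of Mir34c was the larger in replicate 2 and that of Mir34a in replicate 1.

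Mir449a had 167 counts, 39.8 CPM, in replicate 1 and 84 counts, 22.1 CPM, in replicate 2. It held a similar part of the group, 2.78% in replicate 1 (2.38 to 3.22) and 2.62% in replicate 2 (2.10 to 3.24). Mir449b and Mir449c had 0 counts in both libraries, which allows up to 0.715 CPM in replicate 1 and 0.789 CPM in replicate 2. As counts of single genes, Mir34a exceeded Mir34c by 20.4-fold in replicate 1 (18.1 to 23.2) and 3.11-fold in replicate 2 (2.87 to 3.38).

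**Figure D2:**
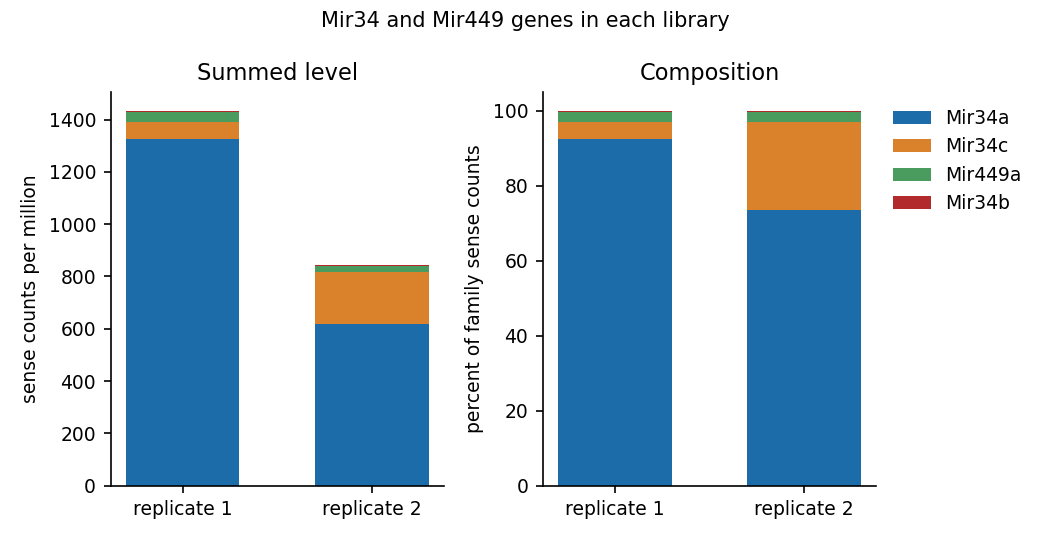
Stacked bars of the miR-34 and miR-449 seed group in replicate 1 (left bar) and replicate 2 (right bar), as sense CPM in the left panel and as a percent of the group's counts in the right panel. Mir34a provides 92.5% in replicate 1 and 73.5% in replicate 2, and Mir34c 4.52% and 23.6%.

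The libraries of the same group differed at 4 of the 5 genes by more than counting error. Ratios are given as replicate 1 over replicate 2, and Fisher's exact test (two-sided, each gene's sense counts against the rest of the library) was adjusted by Benjamini-Hochberg over the 441 genes with 10 or more counts. It compares these 2 libraries and not conditions. Of all tested genes, 56.9% were called at an adjusted p under 0.05, so a call for 4 of the 5 genes was not far from the background. Among the 5, 3 were called higher in replicate 1, where the share of all tested genes was 36.5%, and 1 was called lower, where it was 20.4%. In all, 161 genes were called higher in replicate 1 and 90 lower, against 116 and 124 after TMM normalization (trimmed mean of M-values) and 104 and 136 with DESeq2 size factors, so the direction of the overall excess depended on the scaling; the calls of the 5 genes did not.

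Mir22 was higher in replicate 1 by 4.89-fold (exact 95% interval 4.81 to 4.97), a log2 ratio of 2.29. Mir210 was higher by 4.29-fold (3.99 to 4.61), a log2 ratio of 2.10. For both, the Fisher p-value was too small to be represented. Mir34a was higher in replicate 1 by 2.14-fold (2.04 to 2.25), with a log2 ratio of 1.10 and an adjusted p of 1.88e-227 in Fisher's exact test.

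Mir34c went the other way. Its ratio was 0.326 (exact 95% interval 0.283 to 0.375), so it was lower in replicate 1, with a log2 ratio of -1.60 and an adjusted p of 1.72e-63 in Fisher's exact test. For Mir34b the ratio was 1.51 (0.619 to 3.91), with an adjusted p of 0.512 in the same test, and at 15 and 9 counts in replicates 1 and 2 a difference of the size of Mir34a's was not detectable.

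The sizes can be set against all genes. The median log2 ratio of the 441 tested genes was 0.26, with quartiles of -0.17 and 0.72, and less this median the log2 ratios were 2.03 for Mir22, 0.84 for Mir34a, 1.83 for Mir210, -1.86 for Mir34c and 0.18 for Mir34b. Among the 243 genes with a mean count of 100 or more, 17.3% were past 2-fold, 13.6% toward replicate 1 and 3.7% toward replicate 2, that is 33 and 9 genes, against 25 and 17 with TMM scaling and 22 and 20 with DESeq2 size factors. Of the 5 genes, 4 had that count and all 4 were past 2-fold. Mir34a was no longer past it with TMM scaling (log2 ratio 0.85), with DESeq2 size factors (0.79) or with the total without the 10 most abundant genes (0.99), which left 3. Mir22 had the 6th and Mir210 the 9th highest ratio among the 243 genes, Mir34a the 28th, and Mir34c the 7th lowest.

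**Figure D3:**
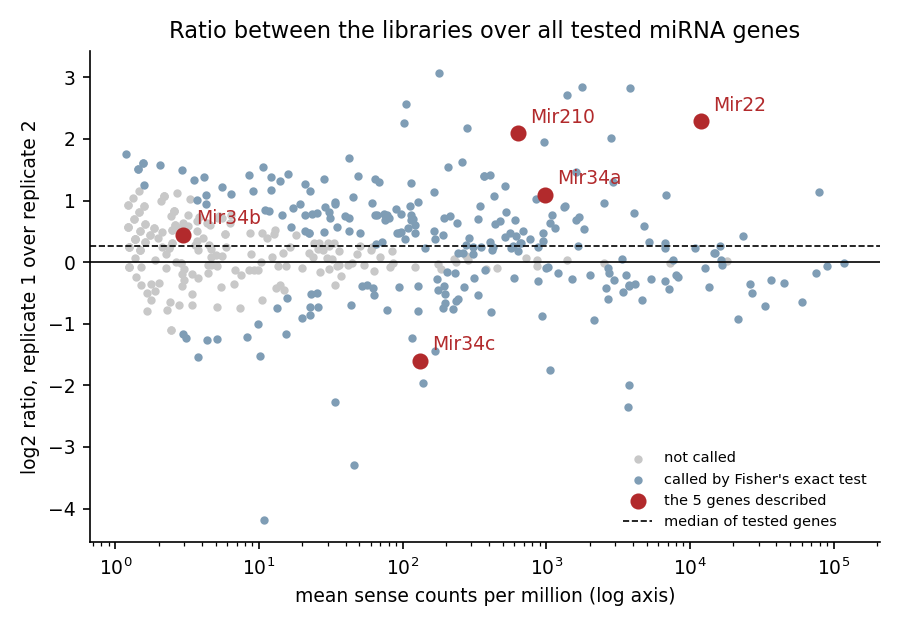
Log2 ratio of replicate 1 over replicate 2 against mean sense CPM (log axis) for the 441 tested genes, with genes called by Fisher's exact test in blue and the 5 genes in red. Mir22 at 2.29 and Mir210 at 2.10 lie near the upper edge. Mir34c at -1.60 lies below 0, well above the lowest gene, Mir9-3 at -4.19. The dashed line marks the median of 0.26.

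Spread beyond counting error was large in this pair of libraries. Estimated by edgeR from 344 genes, the common dispersion was 0.143, which is a coefficient of variation of 0.379. With that spread, edgeR's exact test gave adjusted p-values of 0.452 for Mir22, 0.57 for Mir210 and Mir34c and 1 for Mir34a and Mir34b, so none of the 5 differences passed the threshold once the spread over all genes was taken into account. That spread is estimated from the same 2 libraries, which limits what the test can call.

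The sign of each ratio held under every scaling tried. Before the pseudocount, TMM shifted log2 ratios by -0.24 and DESeq2 size factors shifted them by -0.31, and with the pseudocount the ratios of low genes moved less. Mir34b, at 0.44 in the main scaling, was at 0.26 with TMM and 0.21 with DESeq2 size factors. Over the 5 scalings plotted, the log2 ratio of Mir22 lay between 1.98 and 2.40, that of Mir210 between 1.78 and 2.21 and that of Mir34a between 0.79 and 1.21. For Mir34c it lay between -1.91 and -1.49.

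**Figure D4:**
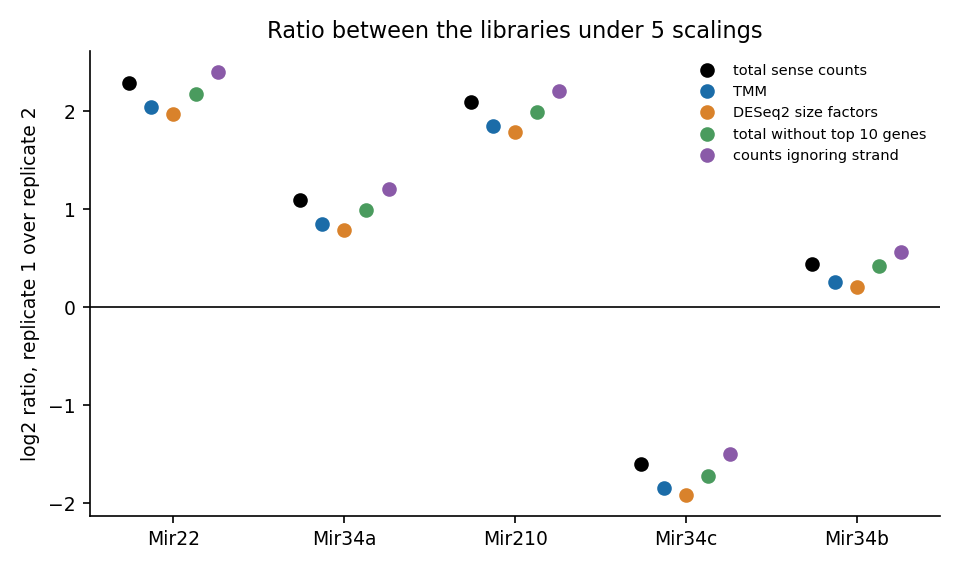
Log2 ratio of replicate 1 over replicate 2 for each gene under 5 scalings, in colour, with no error bars. The points of Mir22, Mir34a, Mir210 and Mir34b lie above 0 and those of Mir34c below 0 under each scaling.

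Base composition moved with the ratios to some degree. Hairpin GC content was 69.1% for Mir210, 55.8% for Mir22, 47.6% for Mir34b, 44.1% for Mir34a and 40.3% for Mir34c, with a median of 51.4% over tested genes. Spearman's rho of GC content with the log2 ratio was 0.27 across the 441 tested genes, as a description over genes of the same 2 libraries. Mir210, the richest in GC of the 5, and Mir34c, the poorest, stood on opposite sides of 0. The order of the ratios followed that of GC in part. Mir210 (log2 ratio 2.10) and Mir22 (2.29), both above the median GC, had the highest ratios of the 5 genes, and Mir34c had the lowest. Mir34a (1.10) and Mir34b (0.44), both below the median GC, were above 0. Mir22 had a higher ratio than Mir210, and Mir34a a higher one than Mir34b, the reverse of their order in GC. The part of base composition in these ratios was not tested.

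Markers of the other cells of the heart also differed between the libraries. The counts of markers called stand beside those of all 441 tested genes. Of these, 36.5% were called higher and 20.4% lower in replicate 1, with a median log2 ratio of 0.26. With TMM scaling 116 were called higher and 124 lower, and with DESeq2 size factors 104 and 136. Endothelial Mir126a held 10.9% of sense counts in replicate 1 and 4.93% in replicate 2, and the smooth muscle genes Mir143 and Mir145a together held 4.86% and 7.95%. The 7 cardiomyocyte markers held 1.31% in replicate 1 and 0.892% in replicate 2, and went both ways. Mir208a, Mir208b and Mir499, which carry the sum, were called higher in replicate 1, Mir1a-2 (log2 ratio -0.70) and Mir133a-1 (-1.25) lower, and 2 were not called. Mir1a-2 had 139 and 207 counts in replicates 1 and 2, and Mir133a-1 had 11 and 29. Multi-mapped reads are in no gene's count, so genes with copies, such as Mir1a, Mir133a and Mir199a genes, can be undercounted. The sums hold counted reads only, and the size of this loss was not tested. The 5 fibroblast and matrix markers, of which Mir199a-1 was at 0, held 1.89% in replicate 1 and 1.66% in replicate 2, with 3 called higher and 1 lower and a median log2 ratio of 0.95. Mir214 was at 6683 CPM in replicate 1 and 941 CPM in replicate 2, and Mir29a at 538 and 203 CPM, whereas Mir21a, the most abundant of this list, was lower in replicate 1 (log2 ratio -0.40). The liver miRNA Mir122 was at 309 CPM in replicate 1 and 105 CPM in replicate 2. The 3 red cell genes summed to 0.0493% in replicate 1 and 0.0400% in replicate 2, with 2 called higher (Mir144 at 117 and 63.7 CPM, and Mir486) and Mir451a at 234 CPM in both. The 5 white cell genes summed to 0.222% and 0.214%, with Mir155 and Mir146 called higher in replicate 1 and Mir142, Mir150 and Mir223 lower (log2 ratios -0.63 to -0.39). With TMM scaling none of the white cell genes was called higher and 3 lower, and of the red cell genes 2 were called higher and 1 lower, against 1 and 1 with DESeq2 size factors. With DESeq2 size factors the counts were 2 higher and 2 lower for cardiomyocyte markers, 2 and 1 for fibroblast and matrix markers and 0 and 3 for white cell genes. The part of cell make-up in the ratios of the 5 genes was not tested.

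For Mir34b and Mir34c the relevant markers are epithelial. The 7 epithelial genes were all detected, with summed shares of 0.0361% in replicate 1 and 0.0577% in replicate 2. Of them 2 were called higher in replicate 1, 3 lower and 2 were not called. Over all tested genes 36.5% were called higher and 20.4% lower. The median log2 ratio of the epithelial genes was 0.08, beside 0.26 over all tested genes. Mir200c, the most abundant of them, was at 193 CPM in replicate 1 and 293 CPM in replicate 2. Mir203, the epithelial gene with the lowest ratio, was at 55.8 CPM in replicate 1 and 221 CPM in replicate 2, close to the values of Mir34c, whereas Mir200b, with the highest, was at 65.5 and 19.7 CPM. Of the 3 ciliated cell genes only Mir449a had counts, and it was higher in replicate 1 (log2 ratio 0.82), opposite to Mir34c. Of the 6 neuron genes, Mir124a-1, Mir124a-2, Mir124a-3 and Mir9-2 were at 0, Mir9-1 had 0 and 2 counts in replicates 1 and 2, and Mir9-3 was at 0.238 CPM in replicate 1 and 21.6 CPM in replicate 2. Reads matching several copies of Mir124a or Mir9 would be in no gene's count, so these zeros do not show absence.

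Other miRNAs linked to the same stimuli went both ways between the libraries, as the 5 genes did. Of 10 p53-linked genes tested, 6 were called higher and 4 lower in replicate 1, beside 36.5% and 20.4% of all tested genes, and the median log2 ratio was 0.75, beside 0.26 over all tested genes. With TMM scaling or DESeq2 size factors 5 were called higher and 4 lower, with medians of 0.51 and 0.44. Of all 441 tested genes, 116 were called higher and 124 lower with TMM, and 104 and 136 with DESeq2 size factors. The medians over all tested genes were then 0.06 and 0.00. Of the 6 called higher, 4 were the gut and liver miRNAs Mir192 (log2 ratio 1.54), Mir194-1 (1.35), Mir194-2 (1.26) and Mir215; the liver marker Mir122 was also higher in replicate 1 (1.54), and the part of such tissue RNA in these ratios was not tested. The most abundant were Mir143, at 47075 CPM in replicate 1 and 73470 CPM in replicate 2, and Mir107, at 3653 and 5610 CPM. The highest ratio in this list was that of Mir215 (log2 3.07), and the lowest that of Mir145a (-1.998), a smooth muscle miRNA.

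Most hypoxia-linked genes were on the other side of 0 from Mir210. Of the 18 genes of this list, all tested, 6 were called higher and 11 lower in replicate 1, and the median log2 ratio was -0.31. Over all tested genes 36.5% were called higher and 20.4% lower, with a median of 0.26. With DESeq2 size factors 4 of the list were called higher and 12 lower, beside 104 and 136 of all 441 tested genes. Its most abundant genes were Mir23b, at 40110 CPM in replicate 1 and 50452 CPM in replicate 2, and Mir23a, at 32873 and 40049 CPM, both lower in replicate 1. Mir24-2 had the highest ratio (log2 1.29) and Mir26a-1 the lowest (-3.29). Mir107 is also among the p53-linked genes. Several of these genes have near-identical copies, so their counts are uncertain.

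Among the cardiac hypertrophy-linked genes, to which Mir22 is closest in known role, 9 of 14 tested were called higher and 3 lower in replicate 1, with a median log2 ratio of 0.40. The shares of all tested genes were 36.5% and 20.4%, with a median of 0.26. With TMM scaling the counts were 7 and 4, beside 116 and 124 of all 441 tested genes. With DESeq2 size factors they were 6 and 4, beside 104 and 136. Mir23a and Mir21a were the most abundant, Mir21a at 11680 CPM in replicate 1 and 15434 CPM in replicate 2. Mir21a, Mir23a and Mir24-2 are also in the hypoxia-linked list. Mir195a had the highest ratio (log2 2.84) and Mir212 the lowest (-0.85).

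**Figure D5:**
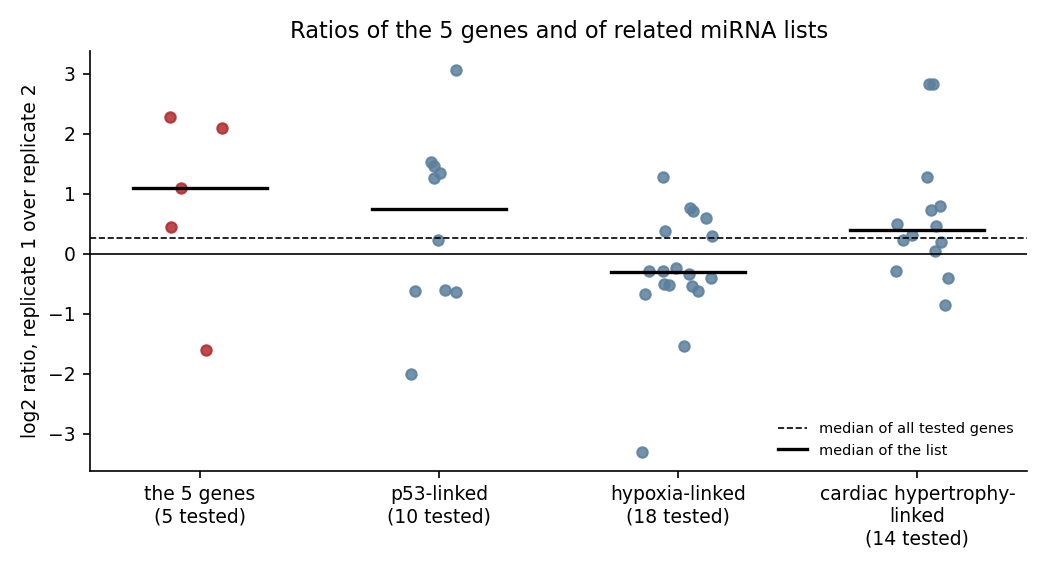
Log2 ratio of replicate 1 over replicate 2 for each tested gene of the set and of the 3 related lists, with a bar at each list's median and a dashed line at the median of all tested genes. The medians are 1.10 for the 5 genes, 0.75 for the p53-linked, -0.31 for the hypoxia-linked and 0.40 for the cardiac hypertrophy-linked genes.

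The genes most like each of the 5 were sought by the distance of log2(CPM + 1) over the 2 libraries, a likeness that rests on 2 values per gene. For Mir22 the nearest was Mir125a, at 9178 CPM in replicate 1 and 4334 CPM in replicate 2, still 1.11 log2 units away, and then Mirlet7e at 1.51. Mir34a lay 0.26 from Mir1839 (1138 and 561 CPM) and 0.40 from Mir181c. Mir210 lay 0.61 from Mir497 (728 and 307 CPM) and 0.80 from Mir25. Mir34c lay 0.26 from Mir203 and 0.30 from Mir380, a gene of the imprinted cluster on chromosome 12 (68.4 and 163 CPM). Mir34b lay near Mir6929 and Mir7213, within 0.14 log2 units, where 1 to a few reads separate genes.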

How the data were processed

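The deposited tables hold the authors' raw read counts per miRNA gene for 1 library each, without normalization; per the description files and labels, reads were aligned to mm10 with GENCODE M21 genes. The sources used here give neither the aligner nor the counter. Each table gives counts without regard to strand, on the gene's strand and on the opposite strand, read from the values. Lines naming no gene (56.2% and 59.1% of reads in replicates 1 and 2) were left out of totals.

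All 2202 gene IDs matched GENCODE M21. The 5 genes and the gene lists were chosen with earlier results of these data known; Mir605 of the p53-linked list was not used here. Fisher's exact test ran on all genes with 10 or more sense counts over both libraries; fold intervals are Clopper-Pearson intervals given the sum of 2 counts. Log2 ratios use a pseudocount of 1 CPM, which understates changes of low genes. With 1 library a side the quasi-likelihood test of edgeR leaves no residual degrees of freedom, so edgeR's exact test, with dispersion from a fit with no group difference, was an alternative. Beside the 5 genes, each list's 2 most abundant genes, its highest and lowest ratios, and the 2 nearest genes were named, with further markers as values. The Fisher calls and ratios were tested on simulated libraries with counting error only, without the larger spread of these libraries. For edgeR only the log2 ratios were checked on them, not the p-values. Tools were Python 3.11.15, scipy 1.17.1, R 4.3.3, edgeR 4.0.16 and DESeq2 1.42.0 (size factors only).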

Additional observations from a re-analysis of the deposited data

How the results depend on the processing

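No ratio between the libraries changed its sign under scaling by TMM, DESeq2 size factors or the total without the 10 most abundant genes, counts without regard to strand, other count minimums or pseudocounts of 0.1 and 10 CPM, and no Fisher call of the 5 genes was lost; with 10 or more counts required in each library, Mir34b was not tested. With edgeR's exact test the log2 ratios were 2.05 for Mir22, 0.85 for Mir34a, 1.86 for Mir210 and -1.86 for Mir34c, none of them called. That test called 2 of 441 genes, Mir9-3 and Mir26a-1 (named after their values were seen), beside 251 by Fisher's exact test; 25 had an unadjusted p under 0.05. With counts without regard to strand Fisher's test called 170 genes higher and 67 lower in replicate 1. Over all reads of the tables as denominator, mean levels of all 5 genes were lower, at 5135 CPM for Mir22, 417 for Mir34a, 274 for Mir210, 54.9 for Mir34c and 1.27 for Mir34b, and with counts without regard to strand Mir34b averaged 3.90 CPM. Per base of hairpin the mean log2 ratio of Mir210 to Mir34c was 1.61, with replicate 2 on the other side of 0. The cause of these changes was not tested, beyond the larger or smaller denominators. No paired analysis was possible because the 2 libraries form a single group. Depth limited the statements on Mir34b, Mir449b and Mir449c.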
